A study of Mus musculus with 36 samples.

Results

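Retinoid storage and metabolism was followed in mouse liver through 9 genes: Rbp4, Lrat, Rdh7, Rdh16, Dhrs3, Aldh1a1, Aldh1a7, Cyp26a1 and Rarb. They were chosen by symbol as genes of the vitamin A pathway, and all 9 were found among the 21889 gene symbols measured. Livers came from 36 male C57BL/6J mice of multiple litters, 3 mice at each of 12 ages. Day -2 was before birth, and Day 0 was after birth but before suckling. Days 1, 3, 5, 10, 15 and 20 were suckling ages, and Days 25, 30, 45 and 60 followed weaning at 21 days of age. RNA was sequenced, and each value is an FPKM (fragments per kilobase of transcript, scaled to the fragments mapped in the library), so that levels of different genes are compared per length.

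The liver takes up dietary vitamin A and stores it as retinyl esters, chiefly in the lipid droplets of hepatic stellate cells, while hepatocytes release retinol into blood bound to a carrier protein. Within cells, retinol is oxidised reversibly to retinal, and retinal is oxidised irreversibly to retinoic acid. Retinoic acid binds nuclear receptors that act at response elements in target genes, and it is cleared by cytochromes P450 of the Cyp26 family.

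No 2 libraries held identical values, and Pearson r between mice of the same age, over all gene symbols on the log2(FPKM + 1) scale, was at least 0.971 over 36 pairs (median 0.988). Summed FPKM per mouse was between 353712 and 450597. Several livers stood apart by RNA of other tissues. The 8 exocrine pancreas markers summed to 23926 FPKM in mouse 1 of Day 60, 8489.7 FPKM in mouse 2 of Day 20, 5645 FPKM in mouse 3 of Day 0, 5468 FPKM in mouse 3 of Day 15 and 5276 FPKM in mouse 1 of Day 45, with Ctrb1 as the most abundant gene of the list at each of these ages. In the 3 mice of Day 25 the same sum was 5.52, 8.89 and 5.75 FPKM. The 8 skeletal muscle markers, led by Acta1, summed to 1299 FPKM in mouse 1 of Day 0, and the kidney genes Umod and Slc12a1 reached 4.37 FPKM in mouse 2 of Day 1. The limits were 1000 FPKM for pancreas or muscle and 1 FPKM for the kidney genes, set after the sums had been seen; mouse 1 of Day 0 and mouse 1 of Day 5 had 985 and 995 FPKM of the pancreas markers. They took 10 mice over 9 ages: mice 1 and 3 of Day 0, mouse 2 of Days 1, 3, 5 and 20, mouse 1 of Days 10, 45 and 60, and mouse 3 of Day 15. Only mouse 2 was then left at Day 0, so differences with Day 0 without the 10 mice rest on 1 mouse there. For the 9 genes, values without these 10 mice are given where they end a call. For other genes only some of these values are given.

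Ages of change were found for each gene on its own, and no test compared them between genes. Rbp4 and Rdh7 rose between Day -2 and Day 0, Rdh16 rose between Day 5 and Day 10 and under some settings earlier, and Aldh1a1, Aldh1a7 and Cyp26a1 rose between Day 20 and Day 25, across weaning, for Cyp26a1 with a call that was lost when any 1 of 5 mice was left out. Aldh1a1 also rose at 3 earlier steps and Aldh1a7 at 1, each with a call that was lost without at least 1 mouse. Rbp4 rose again between Day 0 and Day 1, a call lost under some settings. Calls for rises of Rarb between Day 0 and Day 1, Dhrs3 between Day 1 and Day 3 and Rdh16 between Day 10 and Day 15 were also lost without at least 1 mouse. Dhrs3 was 4.76-fold higher in mean FPKM at Day 60 than at Day -2, while the means of Lrat and Rarb were highest at suckling ages. Differences are given in log2(FPKM + 1), a unit in which low genes seem to change less than they do, and adjusted p-values are from limma fitted over 11149 genes, with 0.05 as the threshold.

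**Figure D1:**
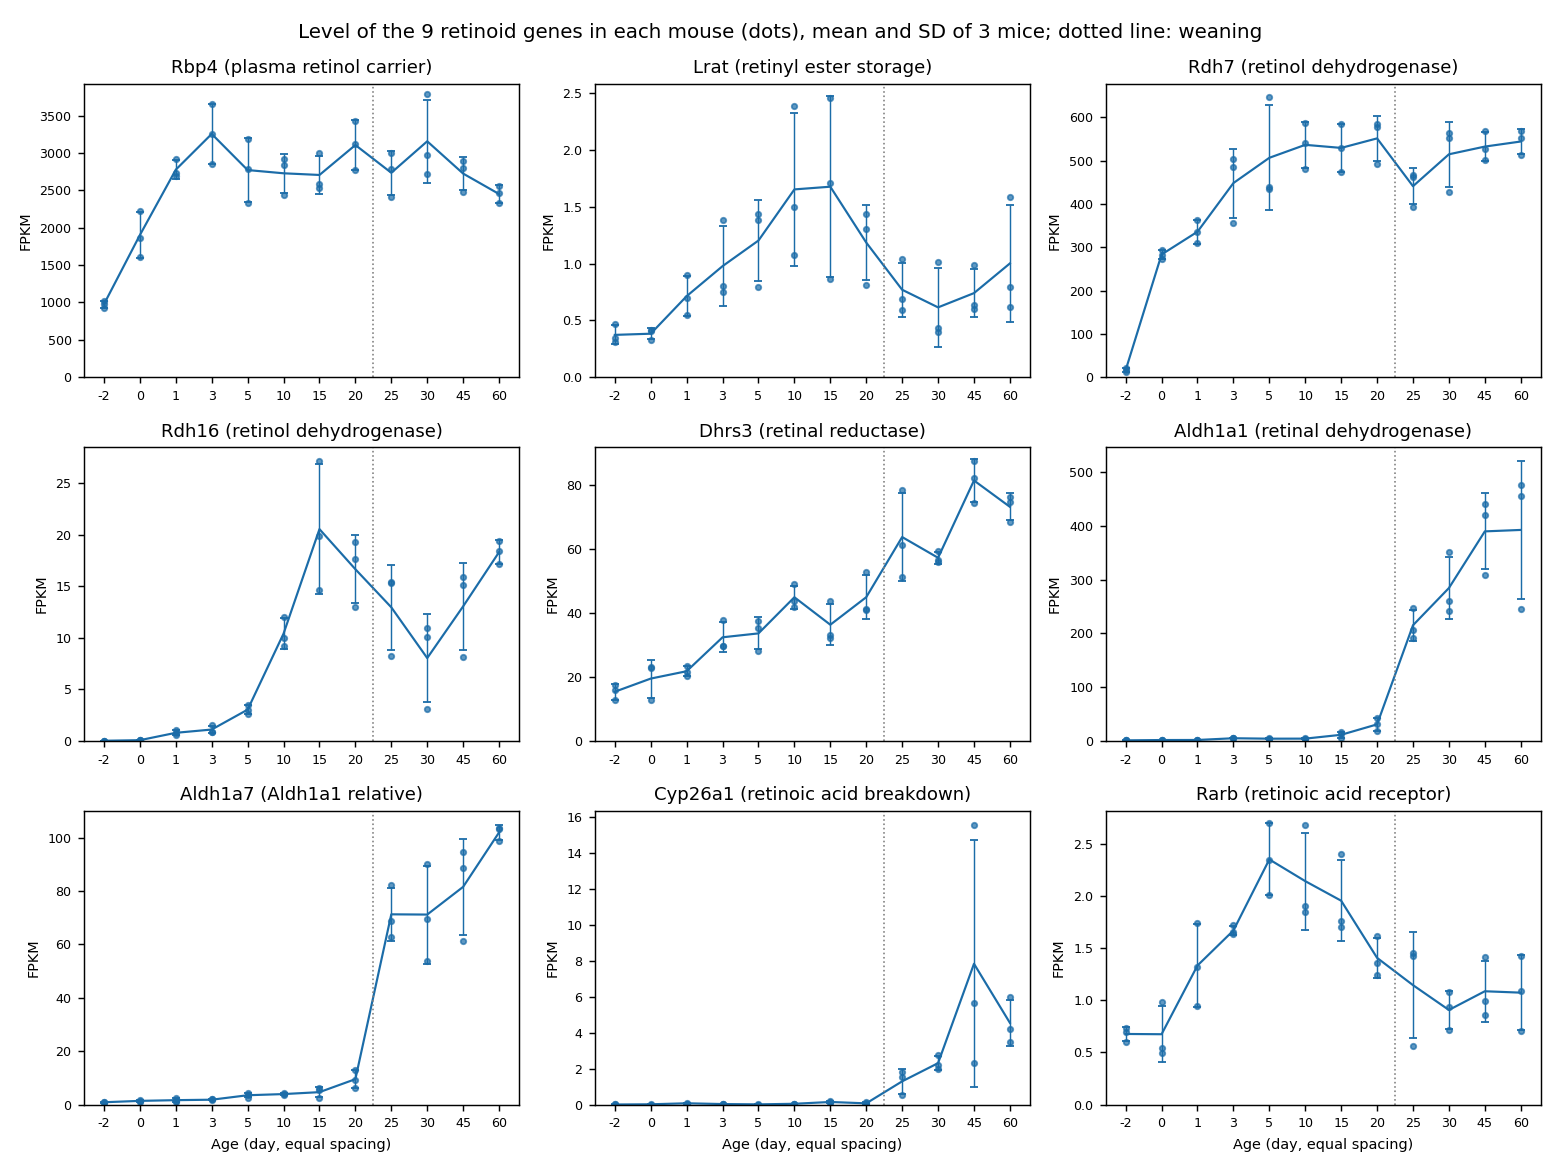
FPKM of the 9 genes (vertical axes) against age in days at equal spacing (horizontal axes), with 1 dot for each of the 36 mice, a line through the means of the 3 mice of each age, bars of 1 SD and a dotted line at weaning. Aldh1a1 had a mean of 30.7 FPKM at Day 20 and 215 FPKM at Day 25, and Rdh7 had a mean of 16.1 FPKM at Day -2 and 283 FPKM at Day 0.

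Rbp4 encodes the plasma protein that carries retinol out of the liver (chr19:38191110-38199811, minus strand, NCBI37/mm9). It was the most abundant of the 9 genes per length at all 12 ages. The 3 mice had 928, 978 and 1021 FPKM at Day -2 (976 ± 46.4), 1860.4, 1614 and 2229 FPKM at Day 0 (1901 ± 309.8) and 2687, 2725 and 2916 FPKM at Day 1 (2776 ± 123), each mean with its SD over 3 mice. The 3 mice of Day 0 were all above the 3 of Day -2, and the 3 of Day 1 were all above those of Day 0. Later values were 2849, 3256 and 3659.5 FPKM at Day 3 (3255 ± 405), 2792, 3187 and 2334 FPKM at Day 5 (2771 ± 427), 2433, 2837 and 2914 FPKM at Day 10 (2728 ± 258) and 2534, 2582 and 3001 FPKM at Day 15 (2706 ± 257). They continued with 2772, 3116 and 3429.9 FPKM at Day 20 (3106 ± 329), 2417, 2997 and 2789.9 FPKM at Day 25 (2735 ± 294), 3785, 2715 and 2968 FPKM at Day 30 (3156 ± 559), 2803, 2474 and 2895 FPKM at Day 45 (2724 ± 221) and 2469, 2556 and 2327 FPKM at Day 60 (2451 ± 116). In order of the means the ages ran from Day -2 to Days 0, 60, 15, 45, 10, 25, 5, 1, 20, 30 and 3, and from Day 60 upwards each age overlapped with the next.

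Rbp4 rose by 0.95 (SE 0.14) on the log2 scale from Day -2 to Day 0, which was 1.95-fold in mean FPKM (limma, adjusted p = 2.39e-06). It rose again by 0.56 from Day 0 to Day 1 (limma, adjusted p = 0.00333), a call that was lost with upper-quartile scaling (adjusted p = 0.0915) or with only the ages compared in the fit (0.0554). Against Day 60, Rbp4 was lower at Day -2 (-1.33; limma, adjusted p = 1e-09) and at Day 0 (-0.38; limma, adjusted p = 0.0188). The Day 0 call was lost without mouse 2 of Day 0 (adjusted p = 0.128), without mouse 2 of Day 60 (0.0604) or with only the ages compared (0.0795). Without the 10 mice with other-tissue markers, which left only mouse 2 at Day 0, the Day 0 difference was -0.6. Rbp4 was above its Day 60 level at Day 3 by 0.40 (limma, adjusted p = 0.0121), and below it with upper-quartile scaling (-0.22, adjusted p = 0.295). That call was also lost without mouse 3 of Day 3 (adjusted p = 0.0764) and without the 10 mice with other-tissue markers (0.0664).

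The rise at birth came with a shift in the marker genes of cell types. The 10 hepatocyte markers, 8 of them at 1 FPKM or more at Day -2 and 9 at Day 0, summed to 9062, 10195 and 10319 FPKM in the 3 mice of Day -2 (Alb most abundant, mean 3272 FPKM) and to 71583, 65763 and 61110.0 FPKM in those of Day 0 (Ahsg most abundant, mean 26737 FPKM). The 8 erythroid markers, all at 1 FPKM or more at both ages and led by Hbb-b1, summed to 21069, 29905 and 30781 FPKM at Day -2 and to 10258, 15249 and 11685 FPKM at Day 0. None of the hepatocyte markers was at 0 in any of the 36 mice. Hepatocyte sums were 57339 to 115621 FPKM over the suckling ages and 43931 to 73054 FPKM after weaning. The part of these marker shifts in the levels of Rbp4 and Rdh7 was not tested.

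Lrat encodes lecithin retinol acyltransferase, which esterifies retinol for storage (chr3:82696501-82707895, minus strand). Its level was low at every age. The 3 mice had 0.466, 0.309 and 0.342 FPKM at Day -2 (0.372 ± 0.083), 0.324, 0.412 and 0.411 FPKM at Day 0 (0.382 ± 0.0502), 0.897, 0.699 and 0.543 FPKM at Day 1 (0.713 ± 0.178) and 1.38, 0.75 and 0.801 FPKM at Day 3 (0.977 ± 0.351). They had 1.38, 0.792 and 1.43 FPKM at Day 5 (1.2 ± 0.357), 2.39, 1.07 and 1.5 FPKM at Day 10 (1.65 ± 0.672), 2.46, 1.71 and 0.863 FPKM at Day 15 (1.68 ± 0.797) and 1.31, 1.44 and 0.812 FPKM at Day 20 (1.19 ± 0.33). After weaning the values were 1.04, 0.587 and 0.685 FPKM at Day 25 (0.769 ± 0.236), 0.433, 1.01 and 0.397 FPKM at Day 30 (0.614 ± 0.345), 0.984, 0.637 and 0.599 FPKM at Day 45 (0.74 ± 0.212) and 0.62, 1.59 and 0.798 FPKM at Day 60 (1.00 ± 0.514). The highest mean was at Day 15, where mouse 1 had 2.46 FPKM and mouse 3 0.863 FPKM. In order of the means the ages were Days -2, 0, 30, 1, 45, 25, 3, 60, 20, 5, 10 and 15, and each age overlapped with the next.

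No step between consecutive ages passed the test for Lrat. The mean of the suckling ages was higher than that of Days -2 and 0 by 0.66 (SE 0.12; limma, adjusted p = 1.47e-05), with 0.543 to 2.46 FPKM (median 1.19) in 18 suckling mice against 0.309 to 0.466 FPKM (median 0.376) in 6 mice before suckling. It was above the ages after weaning by 0.31 (limma, adjusted p = 0.00352), where 12 mice had 0.397 to 1.59 FPKM (median 0.661), so the groups overlapped. With upper-quartile scaling this difference was 0.14 (adjusted p = 0.173). Against Day 60, Lrat was lower at Day -2 (-0.52; limma, adjusted p = 0.0242), a call lost without mouse 2 of Day -2 (0.064), mouse 3 of Day -2 (0.0548) or mouse 2 of Day 60 (-0.32, 0.19). It was lower at Day 0 (-0.50; limma, adjusted p = 0.0324). This was lost without mouse 1 (0.0784), 2 (0.055) or 3 (0.0562) of Day 0 or without mouse 2 of Day 60 (-0.30, 0.233). Without the 10 mice with other-tissue markers, which left only mouse 2 at Day 0, the difference was -0.61.

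Stellate cells were followed with 16 marker genes, none of which was at 0 in any mouse; 8 to 14 of the 16 had a mean of 1 FPKM or more at each age. Their summed level was 68.7, 63 and 61.5 FPKM in the 3 mice of Day -2, 155, 68.7 and 60.5 at Day 0, 134, 141 and 136 at Day 1 and 125, 109 and 109.8 at Day 3. It was 134, 120.1 and 107 FPKM at Day 5, 152, 117 and 127 at Day 10, 137, 96.8 and 85.1 at Day 15 and 86.4, 99.9 and 89.2 at Day 20. It was 56.3, 54.7 and 54.5 FPKM at Day 25, 36.4, 57.8 and 46.4 at Day 30, 48.4, 50.3 and 43.8 at Day 45 and 46.4, 61.5 and 57.3 at Day 60. The 18 suckling mice lay at 85.1 to 152 FPKM, all above the 12 mice after weaning at 36.4 to 61.5 FPKM. Of all genes tested, 68.1% were also called higher in the suckling ages. Their median log2 difference was 0.39, or 0.13 with upper-quartile scaling, and the marker sums were not rescaled. By age mean the most abundant marker was Dcn, Des (Day 0 only), Ecm1 or Colec11, and mouse 1 of Day 0, led by Des, was the mouse with skeletal muscle RNA. Other cell types moved the same way with overlap: from the suckling ages to those after weaning the median sum went from 110.1 to 72.5 FPKM for 8 endothelial markers (led by Clec4g or Cdh5), from 217 to 109.9 FPKM for 8 Kupffer cell markers (led by C1qa, Cd5l or Csf1r) and from 15.4 to 6.85 FPKM for 6 biliary markers (led by Spp1 or Krt19; Cftr at 0 in 3 mice). At each age 7 or 8 of the endothelial, 7 or 8 of the Kupffer cell and 2 to 4 of the biliary markers had a mean of 1 FPKM or more. Fewer cells of a type and less RNA per cell cannot be told apart in whole liver.

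Over the 12 age means of log2(FPKM + 1), Pearson r with the stellate sum was 0.50 for Lrat and 0.68 for Rarb, and over deviations of the 36 mice from their age means it was 0.43 and 0.53. The points share libraries and, in the deviations, the age mean of each group. The other 7 genes had r of the age means from -0.81 (Cyp26a1) to 0.19 (Rbp4), and r of the deviations from -0.34 (Rbp4) to 0.42 (Rdh16), so a within-age r near that of Lrat was also found for Rdh16. The part of stellate or other cell number in the levels of Lrat and Rarb was not tested.

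**Figure D2:**
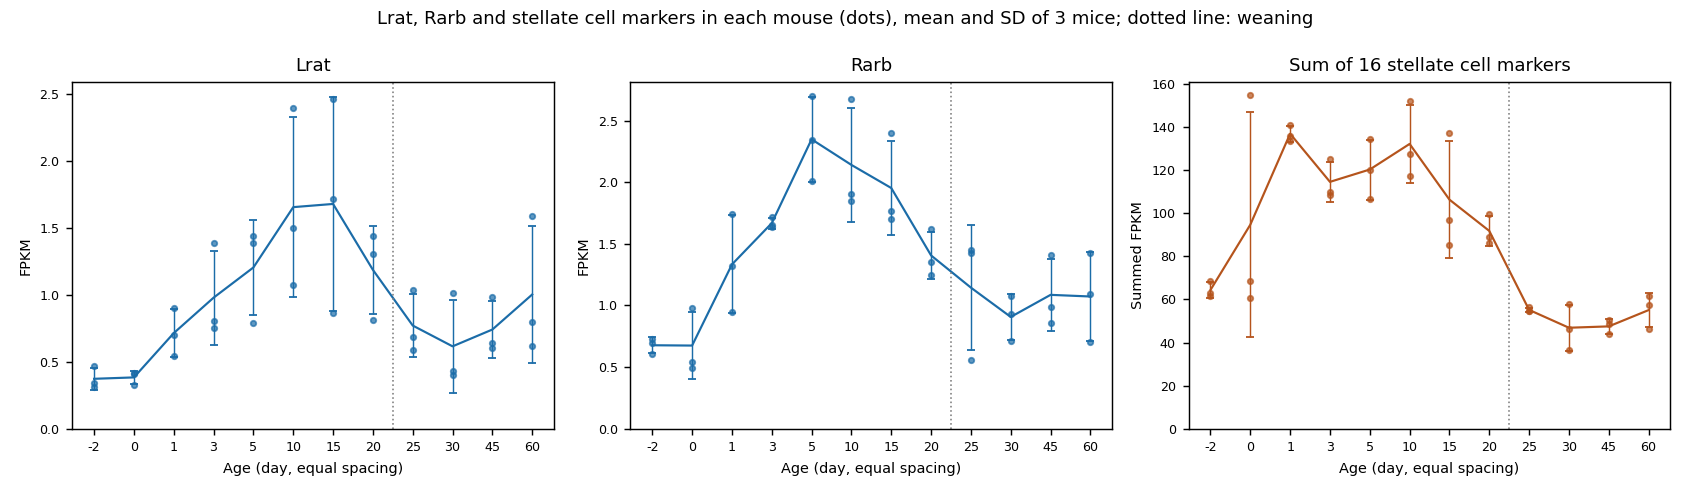
FPKM of Lrat and of Rarb and the summed FPKM of 16 stellate cell markers (vertical axes) against age in days at equal spacing (horizontal axes), with dots for mice, bars of 1 SD over 3 mice and a dotted line at weaning. All 3 panels have their highest means at suckling ages, and the marker sums of the 18 suckling mice, from 85.1 FPKM, lay above those of the 12 mice after weaning, up to 61.5 FPKM. Of all genes tested, 68.1% were called higher in the suckling ages.

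Rdh7 encodes a retinol dehydrogenase, which oxidises retinol to retinal (chr10:127321084-127326095, minus strand). Per mouse it had 11.9, 16 and 20.4 FPKM at Day -2 (16.1 ± 4.25) and 294, 273 and 282 FPKM at Day 0 (283 ± 10.6), so that the prenatal mice lay far below all others. Values then were 309, 364 and 335 FPKM at Day 1 (336 ± 27.3), 357, 503 and 485 FPKM at Day 3 (448 ± 79.7), 435, 646 and 439 FPKM at Day 5 (506 ± 121), 482, 586 and 541 FPKM at Day 10 (536 ± 52.4) and 474, 529 and 585 FPKM at Day 15 (529 ± 55.5). They were 491, 577 and 585 FPKM at Day 20 (551 ± 51.9), 393, 463 and 467 FPKM at Day 25 (441 ± 41.6), 428, 563 and 553 FPKM at Day 30 (515 ± 75.4), 502, 568 and 528 FPKM at Day 45 (532 ± 33.2) and 512, 568 and 552 FPKM at Day 60 (544 ± 29). In order of the means the ages were Days -2, 0, 1, 25, 3, 5, 30, 15, 45, 10, 60 and 20, and from Day 25 each age overlapped with the next.

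Rdh7 rose 17.6-fold in mean FPKM from Day -2 to Day 0 (log2 difference 4.08, SE 0.16; limma, adjusted p = 1.13e-17), higher in 3 of 3 mice than in any of the 3 before birth. Against Day 60 it was lower at Days -2, 0 and 1, with differences of -5.02, -0.94 and -0.70 (limma, adjusted p = 3.98e-21, 1.23e-05 and 0.0005), and no later age passed the test. Suckling ages and ages after weaning differed by -0.09 (limma, adjusted p = 0.279); with upper-quartile scaling the difference was -0.50 (adjusted p = 6.09e-07) and with TPM scaling -0.15 (0.0272). The 5 genes of the chr10 cluster, Rdh7, Rdh16, Rdh1, Rdh9 and Rdh19, are close in sequence, and a fragment may match more than 1 of them. Rdh7 made up 82.2% (Day 20) to 99.4% (Day 0) of their summed FPKM.

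Rdh16 encodes another microsomal retinol dehydrogenase of the same cluster (chr10:127238208-127283621, plus strand). Its mice had 0.0207, 0.0116 and 0.00427 FPKM at Day -2 and 0.0712, 0.0781 and 0.0557 at Day 0, close to no signal. Values were higher through suckling, with 0.758, 1.06 and 0.536 FPKM at Day 1 (0.783 ± 0.261), 1.51, 0.89 and 0.899 FPKM at Day 3 (1.1 ± 0.357), 2.59, 3.48 and 3.02 FPKM at Day 5 (3.03 ± 0.442) and 12.1, 9.97 and 9.19 FPKM at Day 10 (10.4 ± 1.48). They were 27.1, 19.9 and 14.6 FPKM at Day 15 (20.5 ± 6.28), 19.3, 17.7 and 13 FPKM at Day 20 (16.7 ± 3.27), 15.3, 8.23 and 15.4 FPKM at Day 25 (13 ± 4.09), 3.11, 10.9 and 10.1 FPKM at Day 30 (8.03 ± 4.28), 15.9, 15.1 and 8.17 FPKM at Day 45 (13.1 ± 4.24) and 18.4, 19.4 and 17.1 FPKM at Day 60 (18.3 ± 1.14). By mean level the ages were Days -2, 0, 1, 3, 5, 30, 10, 25, 45, 20, 60 and 15, with no overlap between Days -2, 0 and 1 or between Days 3 and 5, and overlap between every other neighbouring pair.

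Rdh16 rose 3.43-fold in mean FPKM from Day 5 to Day 10 (log2 difference 1.5, SE 0.29; limma, adjusted p = 0.000161), with the 3 mice of Day 10 all above those of Day 5. Earlier steps depend on the setting. From Day 0 to Day 1, where the 3 mice did not overlap either, the difference of 0.73 was not called (limma, adjusted p = 0.0517), but it was called with a pseudocount of 0.1 (2.35, 7.44e-06), TPM scaling (1.33, 0.00462), only the ages compared (0.00588), a filter at 5 FPKM (0.0483) and the replicate block (0.0487). From Day 3 to Day 5 the difference of 0.95 (limma, adjusted p = 0.0704) was called with a pseudocount of 0.1 (0.0251) and TPM scaling (0.0439). From Day 10 to Day 15 it rose by 0.88 (limma, adjusted p = 0.0401). This call was lost without mouse 1 (0.0517), 2 (0.112) or 3 (0.121) of Day 10 or mouse 1 (0.167) or 2 (0.123) of Day 15, without the 10 mice with other-tissue markers (0.0744), with TPM scaling (0.075), without a filter (0.0661), with a pseudocount of 0.1 (0.069) and with only the ages compared (0.0735). Against Day 60 it was lower at Day 10 (-0.77; limma, adjusted p = 0.0292), lost without mouse 2 (0.0694) or 3 (0.0883) of Day 10 or mouse 1 (0.065) or 2 (0.0773) of Day 60, with TPM scaling (0.0544) or without the 10 mice (0.103). At Day 30 it was lower with a log2 difference of -1.24 (limma, adjusted p = 0.00969), lost without mouse 1 of Day 30 (-0.75, 0.147), mouse 2 of Day 60 (0.052), the 10 mice (0.107) or with only the ages compared (0.291). The suckling ages were below the ages after weaning with a log2 difference of -1.05 (limma, adjusted p = 2.52e-08), with 0.536 to 27.1 FPKM (median 6.33) against 3.11 to 19.4 FPKM (median 15.2), so the groups overlapped.

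Dhrs3 encodes a short-chain reductase that returns retinal to retinol (chr4:144482730-144518112, plus strand). In the 3 mice per age it had 12.6, 17.5 and 15.9 FPKM at Day -2 (15.3 ± 2.48), 12.6, 22.9 and 22.8 FPKM at Day 0 (19.4 ± 5.91) and 21.6, 23.4 and 20.3 FPKM at Day 1 (21.7 ± 1.56). Day 0 overlapped with Day -2 and with Day 1, while all mice of Day -2 were below those of Day 1. It then had 29.7, 29.7 and 37.7 FPKM at Day 3 (32.3 ± 4.62), 37.6, 35.1 and 28 FPKM at Day 5 (33.6 ± 4.96) and 43.8, 41.9 and 48.8 FPKM at Day 10 (44.8 ± 3.6). Values were 43.6, 32 and 33.2 FPKM at Day 15 (36.3 ± 6.39), 40.8, 41.1 and 52.7 FPKM at Day 20 (44.9 ± 6.8) and 51.3, 78.4 and 61.2 FPKM at Day 25 (63.6 ± 13.7). From Day 30 they were 55.8, 59.3 and 56.4 FPKM at Day 30 (57.2 ± 1.85), 82.1, 74.4 and 87.5 FPKM at Day 45 (81.3 ± 6.57) and 68.3, 76.3 and 74.7 FPKM at Day 60 (73.1 ± 4.23). In order of the means the ages were Days -2, 0, 1, 3, 5, 15, 10, 20, 30, 25, 60 and 45, with no overlap between Days 1 and 3 or between Days 20 and 30.

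Dhrs3 was lower than at Day 60 at all 8 ages up to Day 20, with a difference of -2.19 at Day -2 (limma, adjusted p = 6.54e-12) and of -0.70 at Day 20 (limma, adjusted p = 0.00629). The suckling ages were below the ages after weaning with a log2 difference of -0.96 (SE 0.08; limma, adjusted p = 1.49e-11), with 20.3 to 52.7 FPKM (median 36.3) against 51.3 to 87.5 FPKM (median 71.3). Dhrs3 rose from Day 1 to Day 3 by 0.55 (limma, adjusted p = 0.0477). The call was lost without any 1 of 24 of the 36 mice: each mouse of Days 1, 3, 10, 45 and 60, mouse 3 of Days -2 and 25, mouse 2 of Day 5, mice 2 and 3 of Days 15 and 30, and mice 1 and 2 of Day 20 (adjusted p from 0.0507 to 0.224). It was lost without the 10 mice (0.0766), with upper-quartile scaling (0.212) or TPM scaling (0.134), without a filter (0.0564), with a pseudocount of 0.1 (0.0589) and with only the ages compared (0.0588). Between Day 20 and Day 25 the difference was 0.48 (limma, adjusted p = 0.109).

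Aldh1a1 encodes retinal dehydrogenase, which converts retinal to retinoic acid (chr19:20676451-20717952, plus strand). The 3 mice had 0.809, 0.727 and 1.43 FPKM at Day -2 (0.987 ± 0.382), 1.6, 1.42 and 1.69 FPKM at Day 0 (1.57 ± 0.137), 1.92, 1.96 and 1.17 FPKM at Day 1 (1.68 ± 0.443) and 4.97, 4.95 and 4.78 FPKM at Day 3 (4.9 ± 0.104). They had 3.9, 5.07 and 3.3 FPKM at Day 5 (4.09 ± 0.898), 4.16, 4.61 and 3.79 FPKM at Day 10 (4.19 ± 0.413) and 4.73, 13.4 and 15.8 FPKM at Day 15 (11.3 ± 5.82). The 3 mice of Day 20 had 42.3, 31.1 and 18.7 FPKM (30.7 ± 11.8), all below the 3 mice of Day 25 with 191, 207 and 248 FPKM (215 ± 29.2). Values were then 242, 351 and 260.1 FPKM at Day 30 (284 ± 58.3), 440.3, 420.0 and 309 FPKM at Day 45 (389.8 ± 70.6) and 476, 456 and 246 FPKM at Day 60 (393 ± 128). In order of the means the ages were Days -2, 0, 1, 5, 10, 3, 15, 20, 25, 30, 45 and 60, with no overlap between Days 1 and 5, 10 and 3, 15 and 20, or 20 and 25.

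From Day 20 to Day 25 Aldh1a1 rose 7.01-fold in mean FPKM (log2 difference 2.83, SE 0.29; limma, adjusted p = 4.5e-08), and without the 10 mice with other-tissue markers the log2 difference was 2.88 (limma, adjusted p = 2.84e-05). It rose by 1.15 from Day 1 to Day 3 (limma, adjusted p = 0.00953), lost without mouse 3 of Day 1 (0.0677) or without the 10 mice (0.0655). It rose by 1.11 from Day 10 to Day 15 (limma, adjusted p = 0.0112), lost without mouse 2 (0.105) or 3 (0.115) of Day 15, without the 10 mice (0.233) or with only the ages compared (0.156). From Day 15 to Day 20 it rose by 1.44 (limma, adjusted p = 0.00587), lost without mouse 1 of Day 15 (0.95, 0.0959) or with only the ages compared (0.377). Over all suckling ages it was below the ages after weaning with a log2 difference of -5.42 (limma, adjusted p = 7.28e-24), with 1.17 to 42.3 FPKM (median 4.75) in 18 mice and 191 to 476 FPKM (median 285) in 12 mice. The 2 groups of mice did not overlap.

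Aldh1a7 encodes an aldehyde dehydrogenase closely related to Aldh1a1 (chr19:20767443-20802052, minus strand). Its values were 0.763, 0.985 and 0.933 FPKM at Day -2 (0.894 ± 0.116), 1.01, 1.91 and 1.3 FPKM at Day 0 (1.41 ± 0.46), 1.35, 2.53 and 1.15 FPKM at Day 1 (1.68 ± 0.749) and 1.93, 1.67 and 1.94 FPKM at Day 3 (1.85 ± 0.154). They had 2.63, 4.18 and 3.74 FPKM at Day 5 (3.52 ± 0.797), 3.5, 4.37 and 3.99 FPKM at Day 10 (3.95 ± 0.438) and 2.44, 5.3 and 6.29 FPKM at Day 15 (4.68 ± 2.00). The 3 mice of Day 20 had 13, 9.35 and 6.28 FPKM (9.54 ± 3.37), below the 3 of Day 25 with 68.8, 62.7 and 82.3 FPKM (71.3 ± 10). Values were then 53.7, 90.3 and 69.6 FPKM at Day 30 (71.2 ± 18.4), 88.6, 94.8 and 61.2 FPKM at Day 45 (81.5 ± 17.8) and 103, 104 and 98.7 FPKM at Day 60 (102 ± 2.78). Sorted by mean, the ages were Days -2, 0, 1, 3, 5, 10, 15, 20, 30, 25, 45 and 60, with no overlap between Days -2 and 0, 3 and 5, 20 and 30, or 45 and 60.

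From Day 20 to Day 25 Aldh1a7 rose 7.47-fold in mean FPKM (log2 difference 2.82, SE 0.24; limma, adjusted p = 1.42e-09). From Day 15 to Day 20 it rose by 0.91 (limma, adjusted p = 0.045). That call was lost without any 1 of 21 mice: each mouse of Days -2, 3 and 60, mouse 3 of Days 0, 5 and 30, mouse 1 of Days 1, 25 and 45, mice 2 and 3 of Day 10, and mice 1 and 2 of Days 15 and 20 (adjusted p from 0.0512 to 0.536; log2 difference 0.59 without mouse 1 of Day 15). It was lost without the 10 mice (0.106), without a filter (0.0803), with a pseudocount of 0.1 (0.0516) and with only the ages compared (0.448). The ratio of Aldh1a1 to Aldh1a7 in FPKM, as a mean of 3 mice, was 1.11 at Day -2 and 2.67 at Day 3, then 1.06 at Day 10 and 3.19 at Day 20. It reached 4.82 at Day 45, and 3.83 ± 1.17 at Day 60 came from mice with 4.6, 4.4 and 2.49. The coding sequences of the 2 genes are 91.6% identical (1380 of 1506 bases), but 1 of 1954 windows of 100 bases of the Aldh1a1 transcript was also in Aldh1a7, so few fragments of that length match both. Summed over both genes the difference from Day 20 to Day 25 was 2.86 (limma, adjusted p = 2e-08). The genes lie 49490 bases apart on chr19.

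Marker sums of cell types were compared across weaning without a test. The 16 stellate markers were 86.4, 99.9 and 89.2 FPKM at Day 20 and 56.3, 54.7 and 54.5 FPKM at Day 25. The 6 periportal hepatocyte markers, all at 1 FPKM or more with Cyp2f2 as most abundant, summed to 684, 731 and 915 FPKM at Day 20 and 976, 1198 and 1106 FPKM at Day 25, and none was at 0 in any mouse. Cyp2f2 had a mean of 342 FPKM at Day 20 and 659 FPKM at Day 25, while the other 5 summed to 436, 405 and 462 FPKM and to 394, 484 and 425 FPKM. The 9 pericentral markers, led by Cyp2e1, of which 6 and 7 had a mean of 1 FPKM or more, summed to 4119, 4379.7 and 5293 and 2712, 2419 and 2976 FPKM, and none of these was at 0 in any mouse. Cyp2e1 had means of 4077 and 1923 FPKM, while the other 8 summed to 563, 459 and 539 FPKM at Day 20 and 690.4, 744 and 904 FPKM at Day 25, so the lower sum came from Cyp2e1. Their part in the levels of Aldh1a1, Aldh1a7 and Cyp26a1 was not tested.

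Cyp26a1 encodes the cytochrome P450 that clears retinoic acid (chr19:37772298-37776018, plus strand). It was close to the limit of measurement through suckling: of 24 mice up to Day 20, 4 were listed at 0, and no mouse had more than 30 estimated fragments, with 1 fragment worth about 0.00767 FPKM. The 3 mice had 0.00865, 0.0162 and 0 FPKM at Day -2, 0.0571, 0 and 0 at Day 0, 0.0521, 0.0615 and 0.113 at Day 1 and 0.0378, 0.0451 and 0.0148 at Day 3. They had 0.00732, 0.0406 and 0 FPKM at Day 5, 0.0544, 0.0376 and 0.0499 at Day 10, 0.225, 0.129 and 0.0929 at Day 15 and 0.0871, 0.00739 and 0.12 at Day 20. The values after weaning were 0.524, 1.84 and 1.53 FPKM at Day 25 (1.3 ± 0.687), 2.76, 1.99 and 2.18 FPKM at Day 30 (2.31 ± 0.400), 15.6, 2.33 and 5.64 FPKM at Day 45 (7.84 ± 6.89) and 4.2, 5.98 and 3.49 FPKM at Day 60 (4.55 ± 1.28), and 70 to 262 fragments were estimated in the mice of Day 25. All 12 mice after weaning were above all 24 earlier mice. The highest value, 15.6 FPKM, was mouse 1 of Day 45, a liver with pancreatic RNA, and without it the Day 45 mean was 3.98 FPKM.

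From Day 20 to Day 25 Cyp26a1 rose by 1.05 (SE 0.29; limma, adjusted p = 0.0226), which was 18.2-fold in mean FPKM. With 1 mouse left out the fold was from 12.5 (without mouse 2 of Day 20) to 27.5 (without mouse 3 of Day 20). The call was lost without mouse 1 (0.0537), 2 (0.0817) or 3 (0.0582) of Day 20, without mouse 2 (0.141) or 3 (0.0935) of Day 25, or with only the ages compared (0.0514). Against Day 60 it was lower at each age up to Day 25, with a difference of -2.35 at Day 20 (limma, adjusted p = 4.54e-07) and of -1.30 at Day 25 (limma, adjusted p = 0.00401). The Day 25 call was lost with only the ages compared (0.0572). Over the suckling ages it was below the ages after weaning with a log2 difference of -1.95 (limma, adjusted p = 9.76e-14), and the suckling ages did not differ from Days -2 and 0 by the test (0.07, limma, adjusted p = 0.726).

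Rarb encodes retinoic acid receptor beta, a nuclear receptor for retinoic acid (chr14:17263356-17651381, minus strand). The 3 mice had 0.695, 0.604 and 0.731 FPKM at Day -2 (0.677 ± 0.0652), 0.983, 0.544 and 0.495 FPKM at Day 0 (0.674 ± 0.268), 1.32, 1.74 and 0.943 FPKM at Day 1 (1.33 ± 0.398) and 1.64, 1.65 and 1.72 FPKM at Day 3 (1.67 ± 0.0439). They had 2.34, 2.01 and 2.7 FPKM at Day 5 (2.35 ± 0.345), 2.67, 1.85 and 1.9 FPKM at Day 10 (2.14 ± 0.464), 2.4, 1.76 and 1.7 FPKM at Day 15 (1.95 ± 0.385) and 1.62, 1.35 and 1.24 FPKM at Day 20 (1.41 ± 0.193). The values after weaning were 1.45, 0.558 and 1.43 FPKM at Day 25 (1.14 ± 0.508), 0.711, 1.08 and 0.93 FPKM at Day 30 (0.907 ± 0.185), 1.41, 0.99 and 0.855 FPKM at Day 45 (1.09 ± 0.291) and 0.703, 1.09 and 1.42 FPKM at Day 60 (1.07 ± 0.361), with the highest mean at Day 5. Ranked by mean, the ages were Days 0, -2, 30, 60, 45, 25, 1, 20, 3, 15, 10 and 5, and every neighbouring pair overlapped except Days 20 and 3.

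Rarb rose by 0.48 from Day 0 to Day 1 (limma, adjusted p = 0.0279). This was lost without mouse 2 (0.0925) or 3 (0.129) of Day 0 or mouse 1 (0.0719) or 2 (0.14) of Day 1, with upper-quartile scaling (0.073) or with only the ages compared (0.0789). Without the 10 mice, which left only mouse 2 at Day 0, the difference was 0.46. Over the suckling ages it was above the ages after weaning by 0.45 (SE 0.07; limma, adjusted p = 3.74e-06), with 0.943 to 2.7 FPKM (median 1.73) against 0.558 to 1.45 FPKM (median 1.03), and by 0.23 (adjusted p = 0.005) with upper-quartile scaling. Against Day 60 it was higher at Day 5 by 0.70 (limma, adjusted p = 0.000442; 0.31 and 0.0856 with upper-quartile scaling) and at Day 10 by 0.60 (limma, adjusted p = 0.00316; 0.35 and 0.153 without the 10 mice). It was higher at Day 3 by 0.38 (limma, adjusted p = 0.043), lost without mouse 1 (0.0712), 2 (0.075) or 3 (0.0894) of Day 3 or mouse 1 (0.24, 0.238) or 2 (0.0686) of Day 60, without the 10 mice (0.254), with upper-quartile scaling (0.02, 0.906), with TPM scaling (0.163), without a filter (0.0584) and with a pseudocount of 0.1 (0.053). It was higher at Day 15 by 0.52 (limma, adjusted p = 0.0179), lost without mouse 1 of Day 15 (0.116), mouse 1 of Day 60 (0.129), the 10 mice (0.098) or with only the ages compared (0.0566).

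All 9 genes differed from Day 60 in at least 1 age, as did 90.7% of the 11149 genes tested. Only Rbp4, Rdh7 and Dhrs3 had a mean of 1 FPKM or more at every age; the other 6 genes passed the filter through some ages, so their number is no support for a change. The call of Lrat (limma, adjusted p = 0.0437) was lost without mouse 1 (0.0527), 2 (0.0546) or 3 (0.0549) of Day -2 and without a filter (0.0647), and Dunnett's comparison called Lrat at 0 ages. Against Day 60, 8 genes differed at Day -2 (75.1% of all genes), 8 at Day 0 (63.9%) and 6 at Day 1 (65%). The number was 7 for Day 3 (66%), 6 for Day 5 (65.4%) and 6 for Day 10 (46%). At Day 15 the number was 5 (27.4% of all genes), at Day 20 it was 4 (15.9%), at Day 25 it was 1 (7.42%), at Day 30 it was 1 (3.56%) and at Day 45 it was 0 (0.233%). At Days -2, 0 and 1 the genes called were all lower than at Day 60, as were 18.6%, 20.3% and 11.7% of all genes (29%, 29.8% and 21.7% with upper-quartile scaling), whereas the median log2 difference over all genes at Day -2 was 0.56, or 0.14 with upper-quartile scaling. The same median was 0.25 (0.04 with upper-quartile scaling) for Day 0, 0.47 (0.15) for Day 1, 0.51 (0.09) for Day 3, 0.53 (0.09) for Day 5 and 0.22 (0.11) for Day 10. The count of 1 at Day 25 was 2 without mouse 1 of Day 15 or mouse 3 of Day 60. The count of 1 at Day 30 was 0 without mouse 1 of Day 30 or mouse 2 of Day 60, and 2 without mouse 1 or 2 of Day 45.

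Between consecutive ages, 2 genes rose from Day -2 to Day 0 (Rbp4 and Rdh7), where 54.6% of all genes changed and 13.1% rose. From Day 0 to Day 1, 2 genes rose (31.6% of all genes changed and 23.7% rose), from Day 1 to Day 3, 2 (11.3% and 8.22%), and from Day 3 to Day 5, 0 (3.2% and 1.09%). From Day 5 to Day 10, 1 gene rose (36.3% of all genes changed and 1.88% rose), from Day 10 to Day 15, 2 (12% and 1.52%), and from Day 15 to Day 20, 2 (1.99% and 0.834%). From Day 20 to Day 25, 3 of 9 genes rose, beside 7.19% of all genes that changed and 3.94% that rose. Later steps held 0 calls, with 1.64% of all genes from Day 25 to Day 30, 1.03% from Day 30 to Day 45 and 0.233% from Day 45 to Day 60. The median of all genes was -0.29 from Day -2 to Day 0 (-0.08 with upper-quartile scaling) and -0.31 from Day 5 to Day 10 (0.01). Under that scaling 3 genes rose from Day -2 to Day 0, with Dhrs3 added (46.1% of all genes changed and 20% rose), 0 from Day 0 to Day 1 (26.7% and 14.7%) and 1 from Day 1 to Day 3 (9.03% and 4.56%). It gave 3 from Day 5 to Day 10, with Dhrs3 and Rdh7 added (15.1% of all genes changed and 6.74% rose), 2 from Day 10 to Day 15 (10.1% and 2.89%), 2 from Day 15 to Day 20 (2.38% and 1.17%) and 3 from Day 20 to Day 25 (9.89% and 5.14%). Of the 14 calls between consecutive ages, 6 were kept without any 1 mouse and 8 were lost without at least 1. The count of 2 fell to 0 from Day 1 to Day 3 without mouse 3 of Day 1, from Day 10 to Day 15 without mouse 2 of Day 15, and from Day 15 to Day 20 without mouse 1 of Day 15. The other mice given for Rarb, Dhrs3, Rdh16, Aldh1a1 and Aldh1a7 took the count of their step from 2 to 1, except that from Day 1 to Day 3 it stayed at 2 without mouse 1 of Day 3. The count from Day 5 to Day 10 was 2 without mouse 1 of Day 0, that from Day 3 to Day 5 was 1 without mouse 1 of Day 30, and that from Day 30 to Day 45 was 1 without mouse 1 of Day 25 or mouse 2 of Day 45.

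Between the suckling ages and the ages after weaning, 7 of the 9 genes differed: 2 were higher in the suckling ages (68.1% of all genes were) and 5 were lower (11.7%). The median of all genes was 0.39 higher in the suckling ages, and 0.13 with upper-quartile scaling. Under that scaling 1 gene was higher and 7 lower, while over all genes 5054 were higher and 2878 lower, instead of 7587 and 1299. Relative to the median of all genes the differences were -5.80 for Aldh1a1, -4.53 for Aldh1a7, -2.34 for Cyp26a1, -1.44 for Rdh16, -1.34 for Dhrs3, -0.47 for Rdh7, -0.32 for Rbp4, -0.08 for Lrat and 0.06 for Rarb. For Rbp4 the difference itself was 0.07 (limma, adjusted p = 0.338) and was reversed to -0.35 (adjusted p = 0.000406) with upper-quartile scaling. Against Days -2 and 0, 8 of 9 genes were higher in the suckling ages (27% of all genes were higher and 40.7% lower), with Cyp26a1 as the exception.

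Cyp26a1 and Rarb are known target genes of retinoic acid. The rest of the 9 genes were not sorted into targets and others, so the matches below do not separate them. Windows from 250 bases before to 50 after each transcript start (NCBI37/mm9, GENCODE M1) were searched on both strands for the DR5 retinoic acid response element, 2 hexamers 5 bases apart, and for the DR2 element with 2 bases between them. DR5 was in 52 of 70021 windows (0.074%) and DR2 in 83 (0.119%). Of the 21 windows of the 9 genes, 1 of Cyp26a1 and 1 of Rarb held DR5 and none held DR2. The Cyp26a1 window (chr19:37772048-37772347, plus strand) holds it from -32 to -16, and the Rarb window (chr14:17407937-17408236, minus strand) from -57 to -41, counted from the transcript start. Capitals mark the element. A match is a description, and a window without one says only that these letters are not in it.
Cyp26a1: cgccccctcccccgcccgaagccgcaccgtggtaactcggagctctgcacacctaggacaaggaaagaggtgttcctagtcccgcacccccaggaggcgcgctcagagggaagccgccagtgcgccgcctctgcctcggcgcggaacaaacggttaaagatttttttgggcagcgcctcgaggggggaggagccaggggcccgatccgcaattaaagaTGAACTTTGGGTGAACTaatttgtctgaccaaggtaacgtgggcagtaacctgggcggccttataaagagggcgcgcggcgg
Rarb: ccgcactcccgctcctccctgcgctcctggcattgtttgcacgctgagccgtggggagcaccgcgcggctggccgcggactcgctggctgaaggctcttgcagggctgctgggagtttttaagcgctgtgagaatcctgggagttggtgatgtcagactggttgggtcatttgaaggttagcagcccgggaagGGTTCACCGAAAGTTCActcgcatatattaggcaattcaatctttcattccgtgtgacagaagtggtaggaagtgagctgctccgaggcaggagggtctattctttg

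For each of the 9 genes the 3 most like it were taken among the genes tested with a highest age mean of at least 5 FPKM, by Pearson r of the 12 age means of log2(FPKM + 1), points that share the ages and the libraries. For Aldh1a1 they were Ces3b (r = 0.992), Sdr9c7 (0.989) and Mocos (0.987), and for Aldh1a7 Ces3b (0.995), Mocos (0.989) and Sdr9c7 (0.987), with 3 of 3 genes shared. For Rdh16 they were Dpp4 (0.991), Pls3 (0.976) and Otc (0.975), for Dhrs3 Lmf1 (0.983), Ugt2b1 (0.976) and Cyp2c54 (0.974), and for Lrat Ptprf (0.952), Masp1 (0.949) and Serpind1 (0.944). For Rarb they were Rnf144b (0.976), Ptplad1 (0.965) and Glyctk (0.962), for Rbp4 Clec4f (0.978), Mlycd (0.974) and Nr1i3 (0.973), and for Rdh7 Asgr1 (0.99), Serpina3m (0.99) and Fetub (0.987). For Cyp26a1 they were the major urinary protein genes Mup9 (0.987), Mup21 (0.987) and Mup12 (0.984). The choice depends on the measure: of these 27 pairs of genes, 2 were also chosen by Spearman rho, and 16 with upper-quartile scaling. Spearman rho was 0.608 for Mup9, 0.629 for Mup12, 0.566 for Asgr1 and 0.538 for Serpina3m, the lowest of the 27 pairs. Among the 9 genes, r of the age means was 0.99 for Aldh1a1 and Aldh1a7, 0.94 for Rbp4 and Rdh7 and 0.90 for Lrat and Rarb; over deviations of 36 mice from their age means these were 0.76, 0.38 and 0.53. As high over the age means were Dhrs3 and Aldh1a1 (0.91), Dhrs3 and Aldh1a7 (0.91), Aldh1a7 and Cyp26a1 (0.91) and Aldh1a1 and Cyp26a1 (0.90), whose deviations had r of -0.28, -0.16, -0.11 and 0.06.

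Of 56 other retinoid genes, 44 were tested, of which 40 (90.9%) had some age that differed from Day 60, beside 90.7% of all genes. Between suckling ages and ages after weaning, 21 were higher and 14 lower, beside 68.1% and 11.7% of all genes; with upper-quartile scaling 12 were higher and 20 lower. Against Days -2 and 0, 30 were higher in the suckling ages and 5 lower, beside 27% and 40.7% of all genes. The 11 genes of carriage, binding and uptake held 7 that were tested, all different from Day 60, and Rbp7, Crabp1, Crabp2 and Stra6 were not tested. The 9 genes of retinyl esters and carotenoids held 7 tested and 7 different. The 14 genes of retinol and retinal interconversion held 12 tested and 11 different, the 9 of retinoic acid synthesis and breakdown 7 and 7, and the 13 receptors, cofactors and targets 11 and 8.

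From Day -2 to Day 0, 20 of the 44 (45.5%) changed, of which 16 rose and 4 fell, beside 54.6% of all genes (13.1% rose and 41.4% fell). Without the 10 mice with other-tissue markers only mouse 2 was left at Day 0, so calls lost there cannot be tied to other-tissue RNA. Log2 differences there were 0.12 for Rdh5 (0.64 with all mice), 0.64 for Rdh9 (0.84) and 0.81 for Rdh11 (0.61). They were 0.94 for Rxra (1.31), 0.70 for Scarb1 (0.76) and -0.51 for Rdh10 (-0.52). The rise of Rdh5 was lost without mouse 1 of Day 0 (limma, adjusted p = 0.151), and that of Rdh11 without mouse 2 of Day 0 (0.109). The fall of Bcmo1 was lost without mouse 1 of Day -2 (0.0941). Of the 4 falls, all but that of Rdh10 were lost without mouse 1 of Day -2, and that of Rdh10 was lost with upper-quartile scaling. The 2 other retinoid genes with the largest log2 rises were Adh1 and Rbp2, whose calls were kept without any 1 mouse. Rbp2, a cellular retinol-binding protein best known from the intestine, rose at birth from 40, 34.8 and 39 FPKM at Day -2 (37.9 ± 2.73) to 239, 215 and 247 FPKM at Day 0 (234 ± 16.6) (log2 difference 2.59; limma, adjusted p = 1.03e-12) and was 0.891, 0 and 0 FPKM at Day 60. Adh1, an alcohol dehydrogenase that also oxidises retinol, rose from 60.7, 57.8 and 70.7 FPKM at Day -2 (63.1 ± 6.8) to 672, 813 and 863 FPKM at Day 0 (783 ± 99) (log2 difference 3.61; limma, adjusted p = 1.16e-13).

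From Day 20 to Day 25, 5 of the 44 other genes rose and 5 fell (22.7% changed), beside 3.94% and 3.26% of all genes (7.19% changed). Rdh11, a retinal reductase of the endoplasmic reticulum, rose from 7.13, 4.48 and 4.98 to 54.3, 33.8 and 56.5 FPKM (log2 difference 2.90, SE 0.24; limma, adjusted p = 3.37e-10). Adh4 rose from 9.37, 13.4 and 13.1 to 39.1, 35.4 and 36.4 FPKM (1.57; limma, adjusted p = 7.85e-09), and Retsat, retinol saturase, rose from 55.2, 55.2 and 80.8 to 159.8, 129.7 and 138 FPKM (1.16; limma, adjusted p = 0.0002). In these 3 genes all 3 mice of Day 25 were above all 3 of Day 20. The genes were picked as called rises and the share of all genes without overlap was not counted, so this adds no support. Rdh9, of the chr10 cluster, fell from 84, 115 and 100.4 to 29.9, 25.8 and 29.9 FPKM (-1.76, SE 0.22; limma, adjusted p = 1.63e-06). Rdh9 and Rdh16 coding sequences are 96.8% identical, and 141 of 3108 windows of 100 bases of the Rdh16 transcript (4.54%) were also in Rdh9, so the split between them is uncertain. Rdh9 shares more with Rdh1, which it overlaps on chr10: 401 of 2667 windows of the Rdh9 transcript (15.04%) were also in Rdh1, listed at 0.726 FPKM at Day 20 and 0.487 FPKM at Day 25. Scarb1, a lipid and carotenoid uptake receptor, fell from 155, 137 and 174 to 75, 66 and 78.6 FPKM (-1.07; limma, adjusted p = 0.000395).

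The retinol dehydrogenase Rdh5 fell from 25.5, 25.6 and 34 to 12, 18.3 and 14.6 FPKM (-0.88; limma, adjusted p = 0.0172), a call lost without mouse 3 of Day 20 (0.112), mouse 1 (0.0929) or 3 (0.0528) of Day 25, or with only the ages compared (0.0584). Cyp26b1, a relative of Cyp26a1, fell from 0.992, 2.43 and 4.4 to 0.546, 0.309 and 1.17 FPKM (-1.02; limma, adjusted p = 0.0316), with overlapping mice. This was lost without mouse 2 (0.0954) or 3 (0.265) of Day 20 or mouse 1 (0.0869) or 2 (0.17) of Day 25, without the 10 mice (0.105), without a filter (0.0608) and with only the ages compared (0.199). Rxrg, a retinoid X receptor, rose by 0.46 (limma, adjusted p = 0.00622; 0.207 with a pseudocount of 0.1 and 0.121 with only the ages compared). The remaining 2 calls were Aox1, which rose by 0.91 (limma, adjusted p = 0.000802), and Bcmo1, the beta-carotene oxygenase, at -0.62 (limma, adjusted p = 0.00251; 0.0507 with only the ages compared). Aox1 and Bcmo1 are below the level at which genes are named and were chosen after their values were seen.

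**Figure D3:**
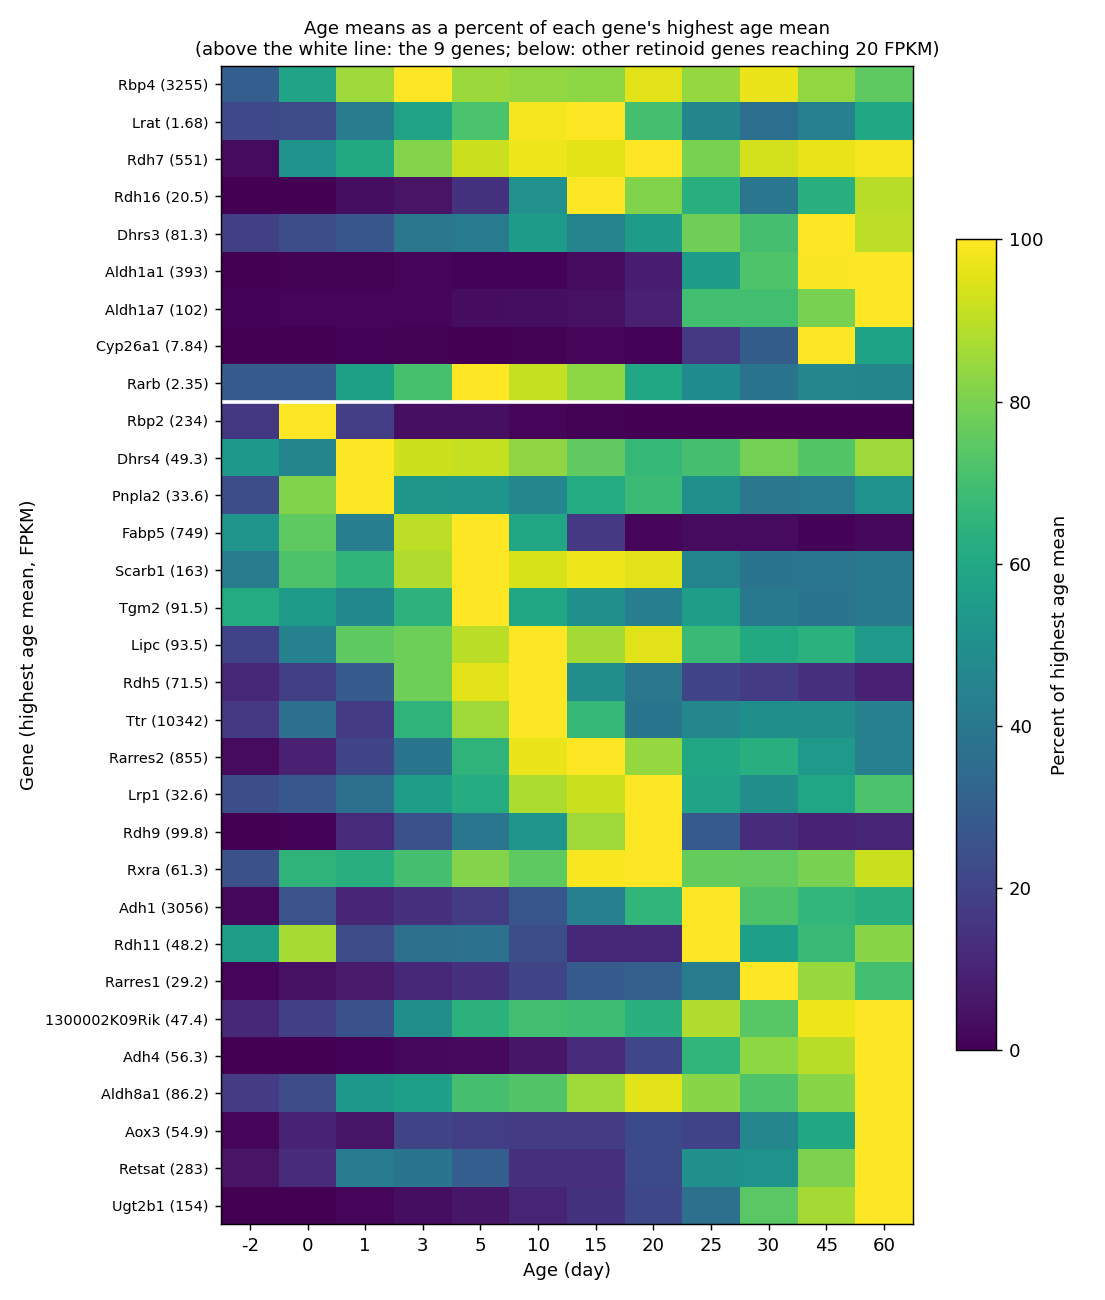
Mean FPKM of each gene at the 12 ages (horizontal axis, days) as a percent of its highest age mean, given in FPKM beside its name, for the 9 genes above the white line and, below it, 22 of the other retinoid genes that reached 20 FPKM. Rbp2 has its highest mean, 234 FPKM, at Day 0, while Aldh1a1, Aldh1a7, Retsat and Adh4 have theirs at Day 60.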

How the data were processed

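The authors deposited 1 FPKM value for each of 21889 gene symbols in each of 36 mice, made, per the submitters' processing notes, with TopHat 1.2.0, Cufflinks 1.0.3 and the genome build mm9. The values are written with 5 digits for 13256 symbols above 0, Lrat and Rarb among them, and with 6 for 5295, with the other 7 genes; the reason is not known here. Read counts were not used here. Relative depth, from the spacing of values in 897 weakly expressed genes, was between 0.889 and 1.10, and 81.5% of those values fell no more than 0.1 from integer fragments. Groups were taken from the age in the sample labels, and the members and lists were chosen with earlier results of these data known.

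Values were transformed to log2(FPKM + 1), with 1 FPKM as pseudocount, and genes were kept if their mean reached 1 FPKM at any age, which left 11149. These were tested with limma 3.58.1 (R 4.3.3). The model held a mean for each age, used all 36 mice and let the prior variance follow mean expression. For a difference in any age, the smallest p over 11 comparisons with Day 60 was taken after Benjamini-Hochberg adjustment over every gene in all of them at once. A comparison read alone was adjusted over the genes within it.

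The named genes are the 9 genes; the other retinoid genes by count, with values for some of those with a highest age mean of at least 20 FPKM or in the families Rbp, Aldh1a, Rdh, Dhrs, Cyp26, Rar and Rxr; markers where their sums are given; and the 3 genes most like each of the 9. Alternatives tried were a filter at 5 FPKM or none, a pseudocount of 0.1, upper-quartile or TPM scaling, a block for replicate number, a fit without the variance trend, only the ages compared in the fit, paralogs summed, Dunnett's comparison and each mouse left out in turn. Leaving out the 10 mice with other-tissue markers was chosen after seeing the data. Positions and sequences were read from NCBI37/mm9 with GENCODE M1. Sums, sequences and figures were made in Python 3.11.15 (biopython 1.88, matplotlib 3.10.9, pandas 2.3.3, scipy 1.17.1 and numpy 2.4.6).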

Additional observations from a re-analysis of the deposited data

How the results depend on the processing

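Single differences were followed for the 52 calls against Day 60, the 14 calls between consecutive ages and all differences between groups of ages. Most were chosen as calls, so this tally leaves out calls gained elsewhere, such as Rdh16 from Day 0 to Day 1. Of these 84 single differences, recomputed with each of the 36 mice left out, 2938 values kept direction and side of the threshold, 86 lost the call and 0 turned. Under the other alternatives 739 kept both, 43 lost the call, 2 passed it only there and 2 turned: Rbp4 at Day 3 against Day 60 (-0.22, limma adjusted p = 0.295) and Rbp4 in Days 1 to 20 against Days 25 to 60 (-0.35, limma adjusted p = 0.000406), both with upper-quartile scaling; the cause was not tested. With any 1 mouse left out, the total of calls between consecutive ages was 10 to 17 instead of 14 and that against Day 60 was 48 to 53 instead of 52, while counts of 0 to 2 in single comparisons moved by more than 1.5 times, down to 0 in 4 of them. The total of calls between consecutive ages was 7 with only the ages compared in the fit, which has fewer mice (6 of the 14 and 1 other), 9 with paralogs summed, which has fewer genes by construction (5 calls of the 5 genes left single, all among the 14, and 4 of the 2 sums), and 8 without the 10 mice with other-tissue markers, chosen after seeing the data (8 of the 14); the cause of the last was not tested. Totals close to 14 also held other calls: upper-quartile scaling made 11 of the 14 and 3 others, TPM scaling 12 and 3, a filter at 5 FPKM 13 and 2, a pseudocount of 0.1 11 and 2, and no filter 11 and 0. With the replicate block the calls against Day 60 were 53 and those between consecutive ages 16 (the 14 and 2 others), and the other counts were 9, 3, 7, 8, 41 and 36. Deviations of mice with the same number correlated by 0.098 on average over 198 pairs (lowest -0.68) and those of other numbers by -0.048. Whether the numbers stand for a pairing of the mice was not tested. With a filter at 5 FPKM, Lrat and Rarb were not tested. Dunnett's comparison called 8 of 9 genes and did not call Lrat. Of the 27 pairs of a gene and a most-like gene, 2 stayed with Spearman rho and 16 with upper-quartile scaling.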

Other observations

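Fabp5, a fatty acid binding protein that can also carry retinoic acid to the nucleus, had 689, 952 and 607 FPKM at Day 5 (749 ± 181) and 18.6, 8.6 and 11.9 FPKM at Day 20 (13 ± 5.12), and was above the ages after weaning in the suckling ages by 3.76 (limma, adjusted p = 1.55e-18). Rarres2, which encodes the secreted protein chemerin, rose at birth by 1.61 (limma, adjusted p = 3.86e-06), from 17.5, 28.5 and 26.3 FPKM at Day -2 (24.1 ± 5.84) to 104, 46.6 and 84.3 FPKM at Day 0 (78.2 ± 29), and had 880.2, 774 and 912 FPKM at Day 15 (855 ± 72.5). Ugt2b1, a glucuronosyltransferase, had 0.351, 0.239 and 0.312 FPKM at Day -2 (0.300 ± 0.0568) and 186, 182 and 93.7 FPKM at Day 60 (154 ± 52.1), and was below the ages after weaning in the suckling ages with a log2 difference of -3.08 (limma, adjusted p = 2.08e-16).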
